A study of Mus musculus with 14 samples.

Results

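The genes described here are the 31 mouse genes that encode glutamate receptors and the auxiliary and scaffold proteins bound to them, out of 43346 genes in the count table. They were taken by gene symbol through their Ensembl identifiers, and all 31 were found. They comprise 4 AMPA receptor subunits, 6 NMDA receptor subunits, 5 kainate receptor subunits, the delta receptor Grid1, 6 metabotropic receptors, 6 transmembrane AMPA receptor regulatory proteins (TARPs), the kainate receptor auxiliary proteins Neto1 and Neto2, and the scaffold Dlg4. Grm4 did not pass the filter on low counts, so 30 were tested.

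RNA came from live GFP-positive cells sorted from the hippocampus of C57BL/6 wild-type mice at day 14; the labels call them adult-born granule cells and do not state the event from which the day was counted or the age of the mice. DREADD Pilo mice (3 libraries) are labelled as having had seizures and been silenced, and CAG-GFP Pilo mice (4 libraries) as having had seizures. DREADD Sham mice (4 libraries) and CAG-GFP Sham mice (3 libraries) had no seizures. Seizures were induced with pilocarpine, a muscarinic agonist, at 300 mg/kg after scopolamine methyl nitrate and terbutaline at 2 mg/kg each, and were stopped after 3 h with diazepam at 10 mg/kg. All 4 groups received CNO, the ligand that activates a DREADD (a designer receptor), so the controls carry its exposure too. About 800 to 1000 cells went into each library, amplified by SMART-Seq v4, which copies whole transcripts from few cells; the vector, its target cells and the number of animals behind a library are not stated in the sources used here.

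Glutamate acts at synapses through ion channel receptors, built from AMPA, NMDA or kainate subunits, and through G protein-coupled metabotropic receptors. AMPA receptors carry most of the fast current and depend on TARPs to reach and stay at the synapse, whereas NMDA receptors admit calcium and change their GRIN2 subunits as a neuron matures. New granule cells acquire glutamatergic input stepwise as they join the dentate gyrus, and astrocytes, oligodendrocyte precursors and interneurons express receptor sets of their own.

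Library totals ranged from 10613291 to 38614639 counts, and levels are given as CPM, counts scaled to library size with TMM factors. A count of 0 in a library allows a level of up to 0.0561 to 0.334 CPM, by counting error alone. The libraries fell into 2 sets by the share of counts in pseudogenes, under and over 1%. This split was drawn from the counts, and no label names it or gives its origin. Set 2 held every DREADD Pilo library, DREADD Sham 3 and 4, and CAG-GFP Pilo 1 and 2; set 1 held the rest, CAG-GFP Sham included. The labelled granule cell identity was uneven: Prox1, which defines granule cells, and Dcx, which marks immature neurons, were both at 0 in DREADD Pilo 3 and CAG-GFP Pilo 4, and Dcx was also at 0 in CAG-GFP Sham 1. DREADD Pilo 3 stood apart, with 185682 CPM of 10 ependymal and choroid plexus markers against 379 to 17148 CPM in the other libraries. Its summed level of the 31 glutamate receptor genes was 51.4 CPM, against 576 to 2592 CPM elsewhere, so the fold changes of members that involve DREADD Pilo are given with and without it. In these bulk libraries fewer cells of a type and less RNA per cell cannot be told apart. The labels do not say which animals a library came from, so the p-values reflect library-to-library spread, which may be technical.

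Per kilobase of exon, the AMPA subunit genes Gria2 and Gria1 and the metabotropic receptor gene Grm3 were among the 5 highest members in every group. In DREADD Pilo cells Grm3 averaged 23.6 ± 31.0 CPM per kb and Gria2 15.8 ± 14.3 CPM per kb (SD, n = 3), which do not differ beyond their spread. In CAG-GFP Pilo cells Gria2 stood at 37.7 ± 17.3 CPM per kb, the TARP gene Cacng3 at 35.5 ± 38.0 and Gria1 at 30.0 ± 8.15 (SD, n = 4), again within their spread. In DREADD Sham cells Gria2 stood at 33.0 ± 18.8, Gria1 at 18.2 ± 22.9 and Grm3 at 16.0 ± 9.08 CPM per kb (SD, n = 4). The order was clear of the spread at its top only in CAG-GFP Sham cells, where Grm3 stood at 83.4 ± 12.8 CPM per kb, Gria2 at 20.7 ± 6.14 and the NMDA subunit gene Grin2c at 13.1 ± 1.90 (SD, n = 3).

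**Figure D1:**
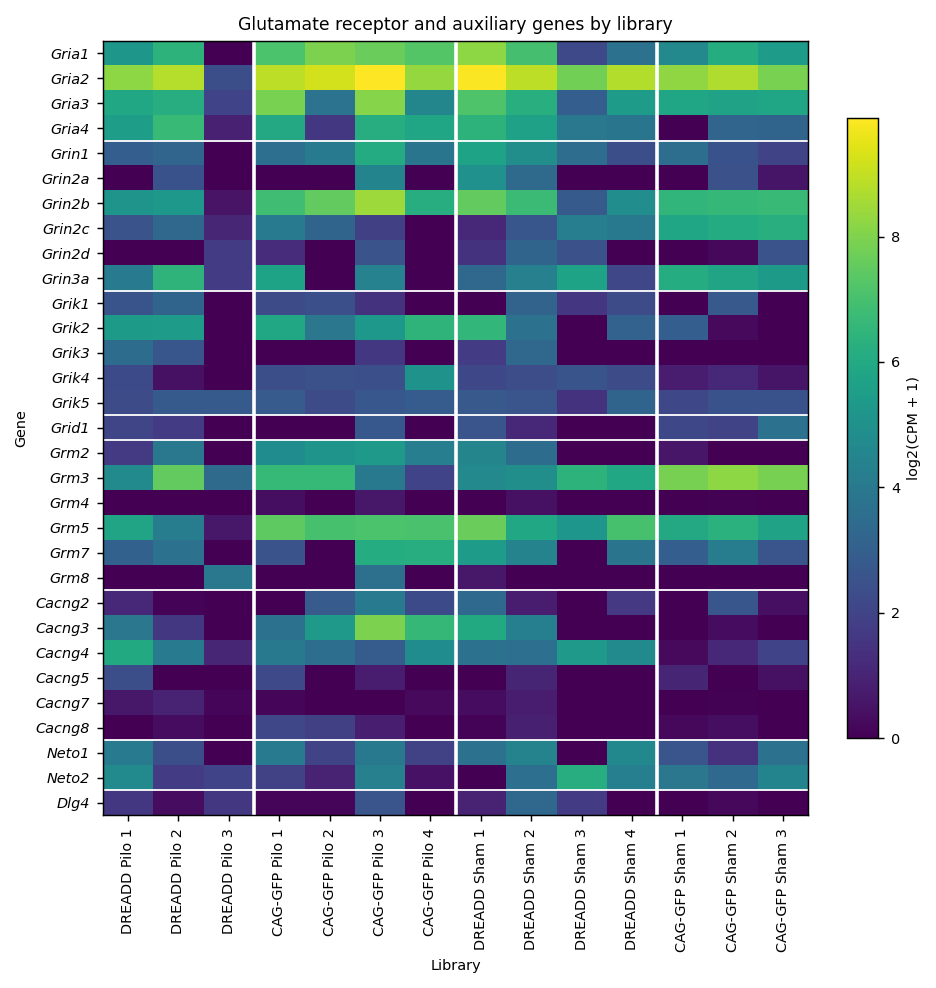
Level of each of the 31 glutamate receptor and auxiliary genes (rows, grouped by role) in each of the 14 libraries (columns, in group order), colour showing log2(CPM + 1). Gria2 is high in every library but DREADD Pilo 3, where it stood at 4.24 CPM, and Grm2 and Cacng3 are near 0 in the CAG-GFP Sham libraries.

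The comparison of CAG-GFP Pilo with CAG-GFP Sham cells addresses seizures in CAG-GFP mice. No glutamate receptor gene passed the edgeR quasi-likelihood test after Benjamini-Hochberg adjustment over all 18676 genes, where 0.241% of all genes did. At an unadjusted p under 0.05 there were 4, against 15.4% of all genes. DESeq2 called 3 members, against 13.6% of the genes it tested, limma voom 3, against 4.16%, the fit on only the groups compared 1, against 1.12%, and the fit within library set 1 called 2, against 2.73%. Of the 30 members, 24 had a positive and 6 a negative fold change, with a median log2 change of 1.73 against 0.41 over all genes tested. Among all genes tested, 58.6% had a positive fold change. The members' median was 0.74 without CAG-GFP Pilo 3 and 2.53 without CAG-GFP Sham 2, the ends of its range with 1 library left out. Grik3 and Grm8, at 0 in CAG-GFP Sham, were also set to their lower bounds. Both bounds lie above the median, so it could not move from 1.73. In 8 members every CAG-GFP Pilo library lay above every CAG-GFP Sham library, against 6.55% of all genes, and in 2 every library lay below, against 12.2%. The 8 were the AMPA subunit gene Gria1, the obligatory NMDA subunit gene Grin1, the kainate subunit genes Grik2 and Grik4, the metabotropic receptor genes Grm2 and Grm5, and the TARP genes Cacng3 and Cacng4, and the 2 were Grin2c and Grm3.

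The TARP genes held the smallest p of this comparison. Cacng3 (ENSMUSG00000066189.5, chromosome 7 at 122670492 to 122769393, GENCODE M21 on GRCm38), which encodes the TARP gamma-3, had 12.4, 38.4, 248 and 94.9 CPM in CAG-GFP Pilo 1 to 4, against 0, 0.247 and 0 CPM in CAG-GFP Sham 1 to 3. All 4 CAG-GFP Pilo libraries were above the CAG-GFP Sham libraries, whose only 5 counts were in CAG-GFP Sham 2. Between the groups Cacng3 differed by a log2 fold of 10.13 ± 3.20 (SE, edgeR adjusted p = 0.26) and ran from 9.10 to 10.50 with 1 library left out, CAG-GFP Sham 2 excepted, without which that group is at 0. Within library set 1 it was 10.89 ± 1.57 with an adjusted p = 0.0111. Cacng4 (ENSMUSG00000020723.3, chromosome 11 at 107732357 to 107794557), the gamma-4 TARP gene, had 15.0, 10.9, 6.32 and 27.5 CPM in CAG-GFP Pilo cells, against 0.199, 1.18 and 2.93 CPM in CAG-GFP Sham cells. Its log2 fold change was 3.37 ± 1.35 (SE, edgeR adjusted p = 0.289), and 3.55 ± 1.65 within library set 1. The 6 TARP genes all had a positive fold change, but Cacng2, Cacng5, Cacng7 and Cacng8 stayed below 16 CPM in every library and overlapped between the groups. Cacng2, which encodes stargazin, ranged from 0 to 15.4 CPM in CAG-GFP Pilo and from 0 to 5.28 CPM in CAG-GFP Sham cells, and Cacng8 from 0 to 3.29 and from 0 to 0.296 CPM in the same order. Cacng5 and Cacng7 did not exceed 4.18 and 0.962 CPM in any of the 14 libraries.

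The 2 group II metabotropic receptor genes, whose products couple to Gi proteins and dampen transmitter release, stood in opposite directions. Grm2 (ENSMUSG00000023192.9, chromosome 9 at 106643095 to 106656082) had 27.3, 33.4, 39.1 and 17.9 CPM in CAG-GFP Pilo libraries, against 0.497, 0 and 0 CPM in CAG-GFP Sham libraries. The fitted log2 fold change was 7.42 ± 2.98 (SE, edgeR adjusted p = 0.29), and 7.35 ± 2.19 within library set 1. All 10 counts of its group were in CAG-GFP Sham 1, without which the group is at 0. Grm3 (ENSMUSG00000003974.5, chromosome 5 at 9485541 to 9725170), a receptor gene with much expression in astrocytes, had 98.9, 97.9, 14.9 and 3.01 CPM in CAG-GFP Pilo libraries, against 231, 299 and 232 CPM in CAG-GFP Sham libraries. Every CAG-GFP Pilo library was below the CAG-GFP Sham libraries, and within CAG-GFP Pilo the 2 libraries of set 1 were the lower ones. Grm3 was not among the 4 members with the smallest p here, and limma voom (adjusted p = 0.00317) and the fit within library set 1 (adjusted p = 0.0138) called it lower.

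Among NMDA subunit genes, Grin2c and Grin1 stood in opposite directions. Grin2c (ENSMUSG00000020734.9, chromosome 11 at 115249169 to 115267243), whose subunit is typical of astrocytes and cerebellar granule cells, had 16.6, 8.11, 2.71 and 0 CPM in CAG-GFP Pilo libraries, against 55.7, 67.0 and 74.7 CPM in CAG-GFP Sham libraries. On the log2 scale the change was -3.27 ± 1.50 (SE, edgeR adjusted p = 0.32), and -5.68 ± 2.13 within library set 1. Grin1 had 11.3, 15.6, 67.6 and 13.3 CPM in CAG-GFP Pilo libraries, against 11.0, 4.69 and 3.04 CPM in CAG-GFP Sham libraries, a narrow gap except in CAG-GFP Pilo 3. Grin2b, the subunit gene of immature neurons, had 71.1 to 344 CPM in CAG-GFP Pilo and 89.2 to 104 CPM in CAG-GFP Sham cells, which overlapped. Grin2a, whose subunit replaces GRIN2B as neurons mature, was at 0 in 3 of 4 CAG-GFP Pilo libraries and had 21.3 CPM in CAG-GFP Pilo 3, against 0 to 4.44 CPM in CAG-GFP Sham cells. Grin2d, at 0 to 4.84 against 0 to 4.77 CPM, and Grin3a, at 0 to 52.0 against 41.5 to 69.4 CPM, overlapped too.

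The makeup of the NMDA subunit transcripts, per kilobase of exon, also differed between the groups. Grin2c made up 24.4%, 15.4%, 2.17% and 0% of the 6 NMDA subunit genes in CAG-GFP Pilo libraries, against 51.6%, 59.7% and 63.2% in CAG-GFP Sham libraries. Grin2b made up 34.0%, 69.3%, 55.7% and 67.6% in CAG-GFP Pilo libraries, against 16.7%, 17.3% and 17.9% in CAG-GFP Sham libraries. A smaller Grin2c share raises the Grin2b share by itself, since both are parts of 1 sum, and the shares were not tested.

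**Figure D2:**
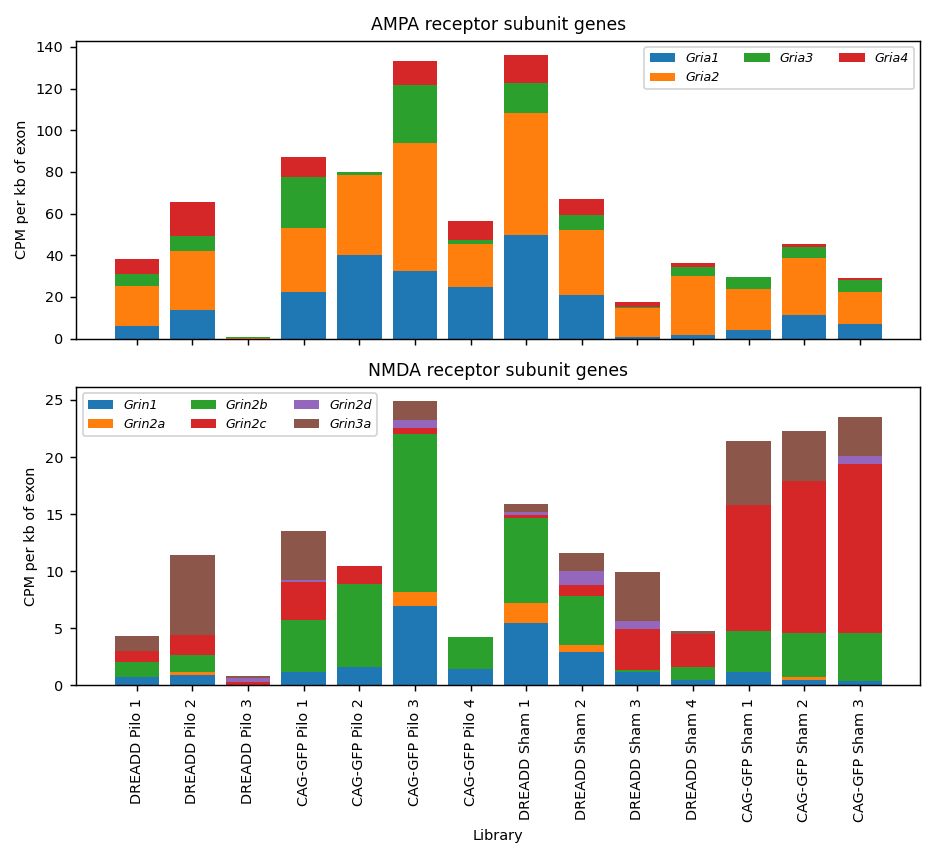
Stacked bars of CPM per kb of exon for the 4 AMPA receptor subunit genes (top) and the 6 NMDA receptor subunit genes (bottom) in each of the 14 libraries. Grin2c takes over 50% of the NMDA bar in each CAG-GFP Sham library and under 25% in each CAG-GFP Pilo library, and both bars are lowest in DREADD Pilo 3.

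All 4 AMPA subunit genes had a positive fold change in CAG-GFP Pilo cells, and 1 of them did not overlap between the groups. Gria1 had 134, 243, 197 and 151 CPM in CAG-GFP Pilo libraries, against 24.2, 69.4 and 42.2 CPM in CAG-GFP Sham libraries. Gria2, the subunit gene that makes AMPA receptors impermeable to calcium once its transcript is edited, had 317 to 952 CPM in CAG-GFP Pilo and 236 to 425 CPM in CAG-GFP Sham cells. Gria3 had 12.5 to 274 against 51.2 to 57.4 CPM, and Gria4 had 61.4, 2.03, 71.5 and 55.1 CPM in CAG-GFP Pilo libraries against 0, 8.34 and 8.18 CPM in CAG-GFP Sham libraries, where CAG-GFP Pilo 2 was the exception. Among kainate subunit genes, Grik2 had 59.6, 14.1, 37.4 and 84.6 CPM in CAG-GFP Pilo libraries, against 6.76, 0.197 and 0 CPM in CAG-GFP Sham libraries. Grik4, the high-affinity subunit gene best known from CA3 neurons, had 4.14, 4.42, 4.39 and 32.2 CPM against 0.746, 1.18 and 0.472 CPM. Grik1, at 0 to 4.33 against 0 to 5.78 CPM, and Grik5, at 3.87 to 6.36 against 3.38 to 4.66 CPM, overlapped. Grik3 had 2.05 CPM in CAG-GFP Pilo 3 and 0 in the other CAG-GFP Pilo and all CAG-GFP Sham libraries.

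Of the remaining metabotropic and auxiliary genes, Grm5 alone did not overlap between the groups. Grm5, the group I receptor gene that couples to Gq and calcium release, had 173, 127, 135 and 133 CPM in CAG-GFP Pilo libraries, against 61.3, 79.9 and 50.4 CPM in CAG-GFP Sham libraries, and was the most even member within CAG-GFP Pilo among those above 20 CPM there. The group III genes Grm7 and Grm8, whose receptors sit on presynaptic terminals, had 0 to 70.3 and 0 to 11.5 CPM in CAG-GFP Pilo cells, against 5.03 to 16.7 and 0 CPM in CAG-GFP Sham cells. Grm4, also of group III, did not exceed 0.543 CPM in any library. The delta receptor gene Grid1 had 0 to 5.60 against 3.06 to 12.4 CPM, Neto1 2.86 to 15.4 against 1.63 to 11.8 CPM, and Neto2 0.411 to 19.0 against 9.53 to 20.9 CPM, all overlapping. Dlg4, the gene of the postsynaptic scaffold PSD-95, had 0 to 5.18 CPM in CAG-GFP Pilo and 0 to 0.148 CPM in CAG-GFP Sham cells.

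**Figure D3:**
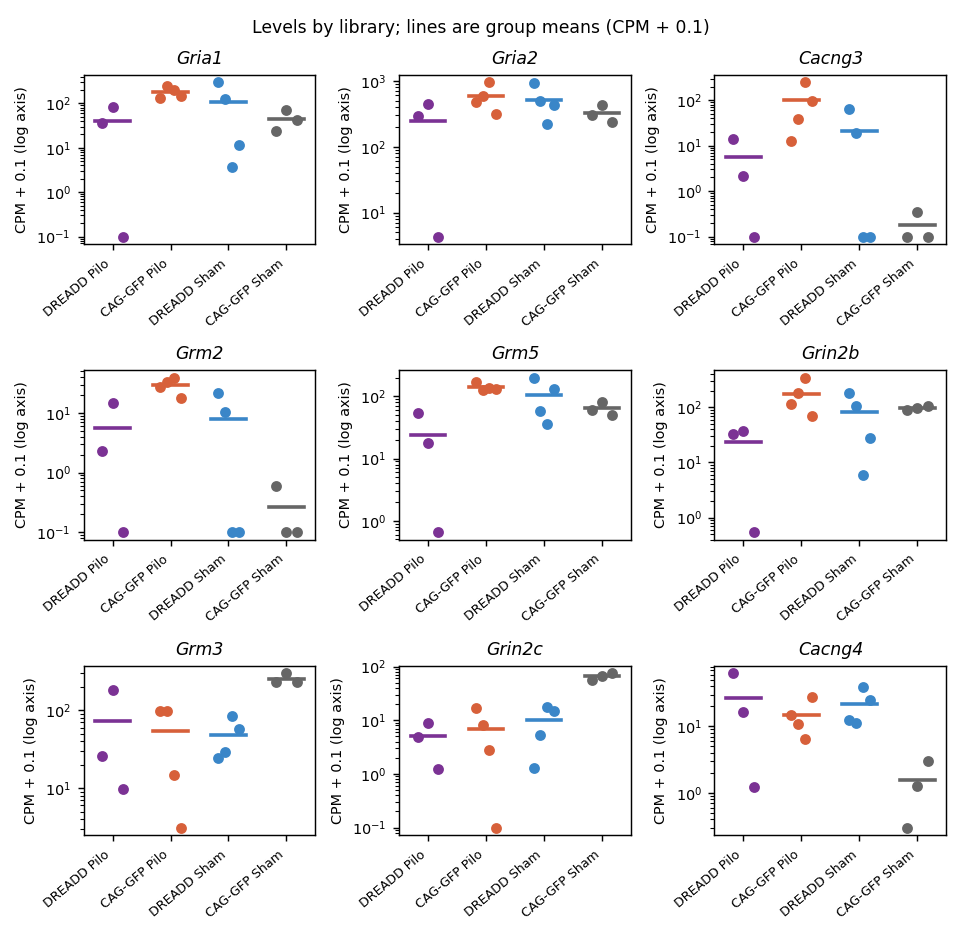
Level of 9 members (panels) in each library by group, on a log axis of CPM + 0.1, with a line at the group mean. Cacng3, Grm2 and Cacng4 lie higher in every CAG-GFP Pilo library than in any CAG-GFP Sham library, and Grm3 and Grin2c lower, while Grm5 and Grin2b lie lower in every DREADD Pilo library than in any CAG-GFP Pilo library.

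Markers of other cell types moved in the same comparison. The 12 astrocyte markers summed to 851 to 6557 CPM in CAG-GFP Pilo libraries, against 28345 to 29719 CPM in CAG-GFP Sham libraries, and 11 of 12 lay wholly below; of the markers, Aqp4 was at 0 in CAG-GFP Pilo 4 and none was at 0 elsewhere. Within CAG-GFP Pilo, the libraries with 6557 and 5228 CPM of astrocyte markers were also those with the higher Grm3 and Grin2c levels. The 9 oligodendrocyte precursor markers summed to 152 to 1200 CPM, against 33.8 to 60.1 CPM, with 6 of 9 wholly above, and Cspg4 and Neu4 were at 0 in all 3 CAG-GFP Sham libraries. Cacng4 ran from 6.32 CPM in the CAG-GFP Pilo library with the lowest precursor sum to 27.5 CPM in that with the highest. The 12 mature granule cell markers summed to 431 to 1250 CPM, against 157 to 190 CPM, with 5 of 12 wholly above. C1ql2, Trpc6 and Plk5 were at 0 in all 3 CAG-GFP Sham libraries. In CAG-GFP Pilo 4 only 6 of 12 had counts, with Prox1, Dsp, Tdo2, Trpc6, Npnt and Il16 at 0. Calb1 alone gave 252 CPM of the sum of 431 CPM in that library. The 10 oligodendrocyte markers summed to 1351 to 37872 CPM, against 596 to 704 CPM, with 8 of 10 wholly above, and the 10 microglia markers to 6001 to 11198 CPM, against 4608 to 4956 CPM, with 6 of 10 wholly above. The 10 immature neuron markers summed to 574 to 1489 CPM, against 345 to 458 CPM, with 5 of 10 wholly above. Igfbpl1 was at 0 in all 3 CAG-GFP Sham libraries, but had only 0 to 0.553 CPM in CAG-GFP Pilo libraries. Stmn1 alone gave 1226 and 505 CPM of the sums in CAG-GFP Pilo 3 and 4. It overlapped between the groups, at 262 to 1226 against 293 to 375 CPM. The 10 CA pyramidal neuron markers summed to 108 to 441 CPM, against 408 to 488 CPM, with 0 wholly above and 2 below. The 10 interneuron markers summed to 227 to 1539 CPM, against 103 to 210 CPM, with 0 wholly above or below. The 10 endothelium markers summed to 53.1 to 198 CPM, against 12.9 to 59.6 CPM, also with 0. Among all genes tested, 6.55% lay wholly above and 12.2% wholly below. The part of these cell types in the receptor values was not tested.

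**Figure D4:**
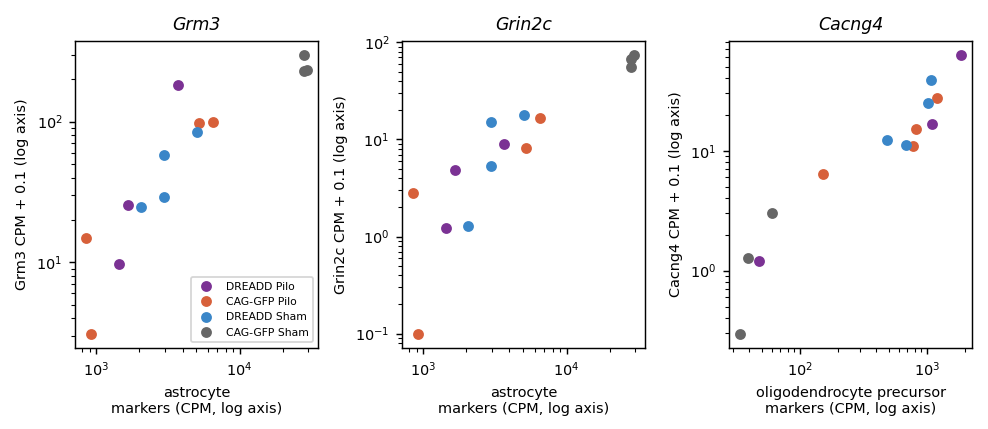
Each point is 1 of 14 libraries, coloured by group, with the level of Grm3 or Grin2c against the summed level of 12 astrocyte markers, and of Cacng4 against 9 oligodendrocyte precursor markers (CPM, log axes, members plus 0.1). The CAG-GFP Sham libraries lie at the top right for Grm3 and Grin2c and at the bottom left for Cacng4, beside DREADD Pilo 3.

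Because Grm2 stood higher and Grm3 and Grin2c lower in every CAG-GFP Pilo library, the 250 bases before their transcription starts were read from RefSeq on GRCm38.p6 and are shown 5′ to 3′ on the gene's strand. Capitals mark matches to 5 motifs, searched on both strands. The first is TTCAGCACC, the left part of RE1, the element bound by REST, which represses neuronal genes in other cells. The next is GGACAGC, the right part of the same element. The motif TGACGTCA is the cAMP response element, bound by the activity-dependent factor CREB. A GC box reads GGGCGG in these windows, and a core promoter TATA box reads TATAAA. The windows are chr9:106656110-106656359 for Grm2, chr5:9725353-9725602 for Grm3 and chr11:115267244-115267493 for Grin2c, all on the minus strand.
Grm2: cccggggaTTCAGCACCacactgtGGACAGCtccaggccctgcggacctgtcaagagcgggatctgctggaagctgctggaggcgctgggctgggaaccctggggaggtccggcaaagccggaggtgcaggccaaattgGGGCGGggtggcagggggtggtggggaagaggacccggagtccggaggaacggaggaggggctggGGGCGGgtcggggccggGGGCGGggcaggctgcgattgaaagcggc
Grm3: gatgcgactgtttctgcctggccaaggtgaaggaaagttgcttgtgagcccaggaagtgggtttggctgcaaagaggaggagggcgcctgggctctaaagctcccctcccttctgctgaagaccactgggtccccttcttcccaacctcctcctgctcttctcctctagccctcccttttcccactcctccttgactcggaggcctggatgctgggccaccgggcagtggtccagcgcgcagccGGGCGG
Grin2c: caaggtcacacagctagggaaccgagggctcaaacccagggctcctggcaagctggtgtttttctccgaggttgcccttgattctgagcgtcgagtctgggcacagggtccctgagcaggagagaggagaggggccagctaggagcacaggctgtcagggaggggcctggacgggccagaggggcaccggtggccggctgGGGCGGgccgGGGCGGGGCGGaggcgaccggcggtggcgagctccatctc
The Grm2 window held both RE1 parts, 7 bases apart, with the first starting 242 bases before the start, and 3 GC boxes. The Grm3 window held 1 GC box, and the Grin2c window 3, of which a pair overlap in the longer run of capitals. The window of Grin1, which also stood higher in every CAG-GFP Pilo library, was read too and held 0 matches to the 5 motifs. Both RE1 parts in order and at most 12 bases apart were found in 5 of 32851 mouse promoter windows (0.0152%). By itself TTCAGCACC was in 0.301%, GGACAGC in 5.28%, TGACGTCA in 1.55%, GGGCGG in 32.7% and TATAAA in 12.4% of these windows. Of 27 windows for 20 of the 31 members, 13 (48.1%) held a GC box and 0 held TGACGTCA or TATAAA. These matches describe the letters only, and binding was not measured.

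Between DREADD Sham and CAG-GFP Sham cells, which addresses the DREADD in mice without seizures, no member passed the edgeR test, where 0.3% of all genes did. At an unadjusted p under 0.05 there were 3 members, against 18.6% of all genes. DESeq2 called 2, against 16.5% of the genes it tested, limma voom 1, against 4.59%, the fit on only the groups compared 1, against 4.26%, and the fit within library set 1 called 2, against 3.07%. Of the 30 members 24 had a positive fold change, against 61.1% of all genes, with a median log2 change of 1.07 against 0.53 over all genes. That median ran from 0.78 without CAG-GFP Sham 1 to 1.72 without CAG-GFP Sham 2. This comparison shares its CAG-GFP Sham libraries with the preceding one. Every DREADD Sham library lay above every CAG-GFP Sham library for 3 members, Gria4, Grik4 and Cacng4 (9.01% of all genes), and below for 2, Grin2c and Grm3 (12.7% of all genes).

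Cacng4 had 12.2, 11.1, 39.1 and 25.0 CPM in DREADD Sham 1 to 4, against 0.199, 1.18 and 2.93 CPM in CAG-GFP Sham libraries. Its log2 fold change was 3.92 ± 1.38 (SE, edgeR adjusted p = 0.224), and 2.99 ± 1.62 within library set 1. Oligodendrocyte precursor markers summed to 488 to 1079 CPM in DREADD Sham libraries, against 33.8 to 60.1 CPM in CAG-GFP Sham libraries, and Cacng4 was higher in the pair of DREADD Sham libraries with the higher sums. Grm3 had 24.5, 29.0, 83.9 and 57.8 CPM in DREADD Sham libraries, against 231, 299 and 232 CPM in CAG-GFP Sham libraries, a log2 fold change of -2.38 ± 1.06 (SE, edgeR adjusted p = 0.259). Within library set 1 it was -3.27 ± 0.68 with an adjusted p = 0.0446, and limma voom gave an adjusted p = 0.0282. Grin2c had 1.18, 5.19, 17.9 and 14.9 CPM in DREADD Sham libraries, against 55.7 to 74.7 CPM in CAG-GFP Sham libraries. The astrocyte markers summed to 2061 to 5057 CPM in DREADD Sham libraries, against 28345 to 29719 CPM, with 12 of 12 wholly below and none at 0. The 10 oligodendrocyte markers summed to 19029 to 40847 CPM in DREADD Sham libraries, against 596 to 704 CPM, with 10 of 10 wholly above. The 10 immature neuron markers summed to 1014 to 2248 CPM, against 345 to 458 CPM, with 7 of 10 wholly above. The 10 CA pyramidal neuron markers summed to 162 to 354 CPM, against 408 to 488 CPM, with 1 wholly above and 3 below. The part of these lists in the receptor values was not tested.

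Neuronal receptor genes were split within DREADD Sham. Cacng3 had 63.5 and 18.5 CPM in DREADD Sham 1 and 2, of set 1, and was at 0 in DREADD Sham 3 and 4, of set 2, against 0 to 0.247 CPM in CAG-GFP Sham libraries. On the log2 scale the change was 7.86 ± 2.94 (SE, edgeR adjusted p = 0.224), and 8.85 ± 1.47 within library set 1 with an adjusted p = 0.0181. Gria1 had 300 and 125 CPM in DREADD Sham 1 and 2, and 3.56 and 11.8 CPM in DREADD Sham 3 and 4. The same split held for Grin2b, at 185 and 107 CPM against 5.90 and 27.9 CPM, for Grm2, at 21.6 and 10.3 CPM against 0 in both, and for Grin2a, at 31.1 and 9.74 CPM against 0 in both. The opposite order held for Neto2, at 0 and 11.3 CPM in DREADD Sham 1 and 2 and 71.2 and 18.3 CPM in DREADD Sham 3 and 4. The same pairs had 208 and 477 CPM, and 7.18 and 0 CPM, of the granule cell marker Calb1, and 30.9 and 79.3 CPM, and 198 and 85.6 CPM, of Prox1. Ependymal and choroid plexus markers summed to 17148 and 17115 CPM in DREADD Sham 1 and 2, against 723 and 468 CPM in DREADD Sham 3 and 4. The part of these cell types in the split was not tested.

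Grik3 had 2.26 and 9.28 CPM in DREADD Sham 1 and 2 and was at 0 in DREADD Sham 3 and 4 and in the 3 CAG-GFP Sham libraries. With the CAG-GFP Sham group at the floor of 3 counts over the group, its mean was at least 57.2-fold higher in DREADD Sham cells (edgeR adjusted p = 0.269). Gria4 had 83.5, 49.8, 14.5 and 13.3 CPM in DREADD Sham libraries, against 0, 8.34 and 8.18 CPM, and Grik4 had 3.39, 4.12, 5.02 and 3.79 CPM against 0.746, 1.18 and 0.472 CPM. Grik4 was even over the DREADD Sham libraries, while Gria4 was lower in the pair of set 2. Gria2 (218 to 915 CPM), Gria3 (6.77 to 142 CPM), Grin1 (4.27 to 53.1 CPM), Grm5 (36.0 to 199 CPM) and Grin3a (3.26 to 52.8 CPM) in DREADD Sham overlapped the CAG-GFP Sham libraries.

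The comparison of DREADD Pilo with CAG-GFP Pilo cells addresses the DREADD after seizures. No gene of any kind passed the edgeR test (0% of all genes), and 2 members had an unadjusted p under 0.05, against 5.36% of all genes. DESeq2 called 0 members, against 1.23% of the genes it tested, and limma voom 0, against 0%. Of the 30 members 18 had a negative and 12 a positive fold change, where 58.4% of all genes had a positive one. The members' median log2 change was -0.64 against 0.28 over all genes, and 0.01 with library set as a covariate. It was -0.05 without CAG-GFP Pilo 3, -1.27 without either DREADD Pilo 1 or DREADD Pilo 2, and -0.70 without DREADD Pilo 3. For 6 members every DREADD Pilo library lay below every CAG-GFP Pilo library, against 3.15% of all genes, and for 0 above, against 5.69%. The 6 were Gria1, Grin1, Grin2b, Grik4, Grm2 and Grm5. Leaving out a DREADD Pilo library can only add to such counts. Without DREADD Pilo 3, an alternative chosen after the values were seen, 5.89% of all genes lay below, with no further member, and 13.3% above, with Grik1, Grik3 and Cacng7 among them.

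Grm5 (ENSMUSG00000049583.10, chromosome 7 at 87584168 to 88134907) had 53.8, 17.4 and 0.557 CPM in DREADD Pilo 1 to 3, against 173, 127, 135 and 133 CPM in CAG-GFP Pilo 1 to 4. The fitted log2 fold change was -2.57 ± 1.01 (SE, edgeR adjusted p = 0.882), -2.02 without DREADD Pilo 3, -4.0 without DREADD Pilo 1 and -2.64 ± 1.38 within library set 2. Grin2b (ENSMUSG00000030209.10, chromosome 6 at 135713233 to 136173511) had 33.4, 37.3 and 0.446 CPM in DREADD Pilo libraries, against 114, 181, 344 and 71.1 CPM in CAG-GFP Pilo libraries. Its log2 fold change was -2.90 ± 1.23 (SE, edgeR adjusted p = 0.882), -2.35 without DREADD Pilo 3 and -2.62 ± 1.40 within library set 2. For both genes DREADD Pilo 3 was the lowest of the 7 libraries. Grm5, Grin2b and the other named members all had smaller folds without that library.

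Cacng3 had 14.1, 2.04 and 0 CPM in DREADD Pilo libraries, against 12.4, 38.4, 248 and 94.9 CPM in CAG-GFP Pilo libraries, and DREADD Pilo 1 lay within the CAG-GFP Pilo range. The fitted log2 fold change was -4.19 ± 2.40 (SE, edgeR adjusted p = 0.882), -3.65 without DREADD Pilo 3, -6.59 without DREADD Pilo 1 and -2.23 ± 2.07 within library set 2. Grik4 had 3.68, 0.361 and 0 CPM in DREADD Pilo libraries, against 4.14, 4.42, 4.39 and 32.2 CPM in CAG-GFP Pilo libraries. On the log2 scale the change was -3.06 ± 1.81 (SE, edgeR adjusted p = 0.885), -2.51 without DREADD Pilo 3, -1.67 without CAG-GFP Pilo 4, -5.91 without DREADD Pilo 1 and -1.65 ± 2.06 within library set 2. Gria1 had 36.9, 82.6 and 0 CPM against 134, 243, 197 and 151 CPM, Grm2 2.24, 14.5 and 0 CPM against 27.3, 33.4, 39.1 and 17.9 CPM, and Grin1 6.76, 8.30 and 0 CPM against 11.3, 15.6, 67.6 and 13.3 CPM, so DREADD Pilo 2 came nearest to CAG-GFP Pilo for all 3.

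Other members overlapped between DREADD Pilo and CAG-GFP Pilo. Cacng4 had 63.1, 16.5 and 1.11 CPM in DREADD Pilo libraries, against 6.32 to 27.5 CPM, and Gria4 had 46.2, 104 and 0.892 CPM against 2.03 to 71.5 CPM. In DREADD Pilo the order of Cacng4 followed that of the summed oligodendrocyte precursor markers, at 1869, 1100 and 47.9 CPM. Grm3 had 25.5, 181 and 9.59 CPM in DREADD Pilo, against 3.01 to 98.9 CPM, and Grin3a 16.4, 85.9 and 2.34 CPM against 0 to 52.0 CPM. Grik3 had 10.4 and 5.23 CPM in DREADD Pilo 1 and 2 and 0 in DREADD Pilo 3, against 2.05 CPM in CAG-GFP Pilo 3 and 0 in the others. The mature granule cell markers summed to 159 to 283 CPM in DREADD Pilo libraries, against 431 to 1250 CPM in CAG-GFP Pilo libraries, with 3 of 12 wholly below. In DREADD Pilo 3, Prox1, Tdo2, C1ql2 and Trpc6 were at 0. The 10 interneuron markers summed to 42.7, 49.9 and 3.46 CPM in DREADD Pilo 1 to 3, against 227 to 1539 CPM in CAG-GFP Pilo libraries, with 2 of 10 wholly below. Cck alone gave 1438 and 374 CPM of the sums in CAG-GFP Pilo 3 and 4. The 10 immature neuron markers summed to 14.8 to 605 CPM, against 574 to 1489 CPM, with 1 of 10 wholly below, and 5 of 10, Dcx among them, were at 0 in DREADD Pilo 3. Their part in the receptor values was not tested.

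**Figure D5:**
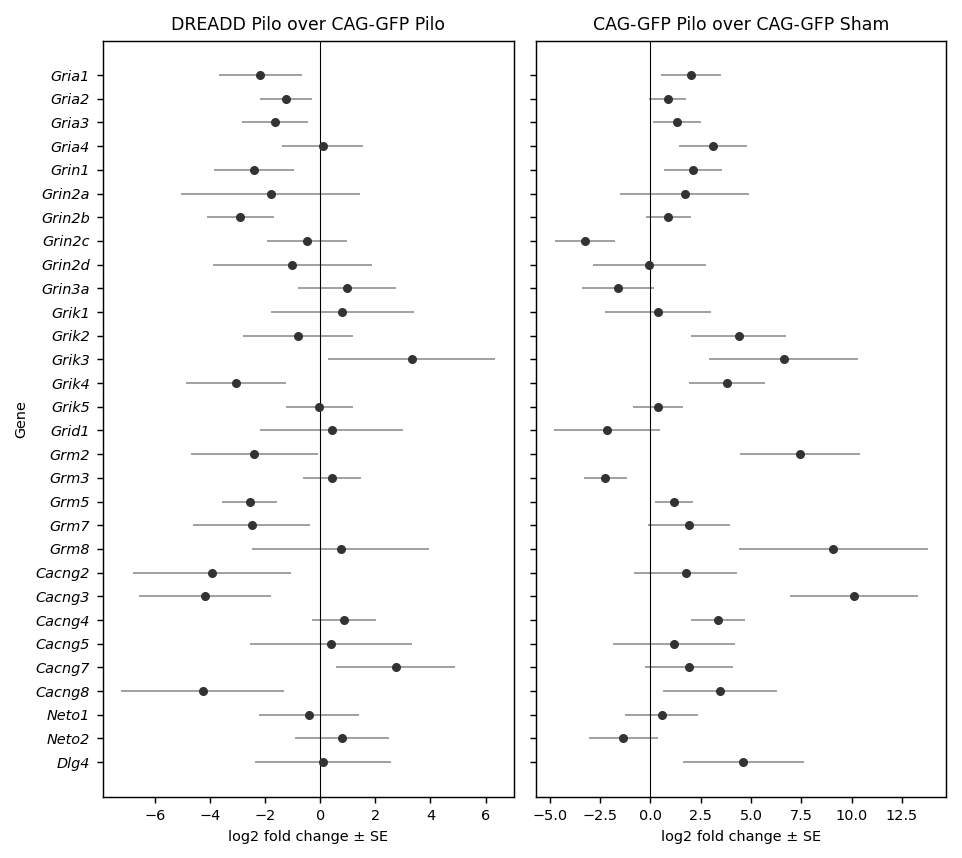
Log2 fold change ± SE from edgeR for the 30 tested members, DREADD Pilo over CAG-GFP Pilo (left) and CAG-GFP Pilo over CAG-GFP Sham (right, a wider axis). Among the members with the smallest p, Grm5 stands at -2.57 on the left and Cacng3 at 10.13 on the right, and no member passed the test in either comparison. Grik3 and Grm8 are at 0 in CAG-GFP Sham, so their points on the right depend on the prior count.

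Between DREADD Pilo and DREADD Sham cells, which addresses seizures in DREADD mice, no gene passed the edgeR test (0% of all genes), 1 member had an unadjusted p under 0.05 (5.18% of all genes). DESeq2 called 0 members, against 0.881% of the genes it tested, and limma voom 0, against 0%. Of the 30 members 18 had a negative fold change, where 52.3% of all genes had a positive one. The members' median log2 change was -1.01 against 0.07 over all genes. It was -0.23 without DREADD Sham 1, -0.56 without DREADD Sham 2, -0.54 without DREADD Pilo 3 and -1.33 without DREADD Pilo 1. For no member did the groups stand apart, with or without DREADD Pilo 3, where 4.39% of all genes lay wholly above and 2.23% below, and 9.71% and 3.81% without that library. The direction of the members' median depended on the library sets: it was 0.29 within set 2, which held all 3 DREADD Pilo libraries and DREADD Sham 3 and 4.

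Grm5 had 53.8, 17.4 and 0.557 CPM in DREADD Pilo libraries, against 199, 58.3, 36.0 and 130 CPM in DREADD Sham libraries, and only DREADD Pilo 1 lay within the DREADD Sham range. Its log2 fold change was -2.14 ± 0.99 (SE, edgeR adjusted p = 0.954), -3.59 without DREADD Pilo 1, -1.60 without DREADD Pilo 3 and -1.80 ± 1.36 within set 2. Grin1 had 6.76, 8.30 and 0 CPM against 53.1, 28.4, 10.7 and 4.27 CPM, a log2 fold change of -2.26 ± 1.44 (SE, edgeR adjusted p = 1), -1.72 without DREADD Pilo 3 and -0.59 ± 1.84 within set 2. Grin2b had 33.4, 37.3 and 0.446 CPM against 185, 107, 5.90 and 27.9 CPM, a log2 fold change of -1.78 ± 1.16 (SE, edgeR adjusted p = 1), -1.24 without DREADD Pilo 3, and its sign turned to 0.48 ± 1.41 within set 2. Grm8 had 14.6 CPM in DREADD Pilo 3 and 0.541 CPM in DREADD Sham 1, and was at 0 in the other 5 libraries of these groups. Its log2 fold change of 5.09 ± 3.62 (SE, edgeR adjusted p = 1) thus rested on 1 library, without which DREADD Pilo is at 0.

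Neuronal markers differed between the same groups. The 10 immature neuron markers summed to 605, 491 and 14.8 CPM in DREADD Pilo 1 to 3, against 1014 to 2248 CPM in DREADD Sham libraries, with 3 of 10 wholly below. The 10 markers of CA pyramidal neurons summed to 62.4 to 90.01 CPM, against 162 to 354 CPM, with 2 of 10 wholly below, and Spink8 was at 0 in all 3 DREADD Pilo libraries and in DREADD Sham 3 and 4. The 12 mature granule cell markers summed to 159 to 283 CPM, against 196 to 856 CPM, with 0 of 12 wholly below. Their part in the receptor values was not tested.

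The interaction asks whether the difference between seizure and sham mice was the same in DREADD as in CAG-GFP cells. No gene passed the edgeR test (0% of all genes), and 5 members had an unadjusted p under 0.05, against 11.7% of all genes. DESeq2 called 1 member, Cacng3 (adjusted p = 0.01), against 8.53% of the genes it tested, and limma voom called 0, against 0.198%. The 5 members all had a negative interaction, as did 24 of the 30, where 42.8% of all genes had a positive one. For the 30 the median was -2.93 against -0.43 over all genes on the log2 scale. The members' median was -1.34 without CAG-GFP Pilo 3, -2.71 without DREADD Pilo 3 and -1.82 with library set as a covariate. Cacng3 had an interaction of -12.05 ± 3.78 (SE, edgeR adjusted p = 0.366), Grm5 -3.30 ± 1.37 (0.412), Grm2 -7.94 ± 3.55 (0.413) and Grik4 -5.40 ± 2.51 (0.423). Without DREADD Pilo 3 the interaction was -11.50 for Cacng3, -2.71 for Grm5, -7.35 for Grm2 and -4.82 for Grik4. Other omissions moved it further: Grik4 stood at -8.22 without DREADD Pilo 1 and -4.01 without CAG-GFP Pilo 4. Grm5 stood at -4.70 without DREADD Pilo 1. The Cacng3 and Grm2 values rest on 5 and 10 counts in CAG-GFP Sham, each in 1 library, without which that group is at 0. In the group means, Cacng3 stood at 5.39 ± 7.63 CPM in DREADD Pilo and 20.5 ± 29.9 CPM in DREADD Sham cells, and at 98.5 ± 106 CPM in CAG-GFP Pilo and 0.0823 ± 0.143 CPM in CAG-GFP Sham cells (SD, n = 3, 4, 4 and 3). Grm5 stood at 23.9 ± 27.2 CPM in DREADD Pilo and 106 ± 73.8 CPM in DREADD Sham cells, and at 142 ± 20.9 CPM in CAG-GFP Pilo and 63.9 ± 14.9 CPM in CAG-GFP Sham cells (SD). DREADD Pilo and CAG-GFP Sham libraries share no library set, so the interaction could not be computed within a set.

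Genes that work with these receptors were described from 2 lists. Of 32 postsynaptic partners, 31 were tested and none passed the edgeR test in any comparison. Of the 31, 27 had a positive fold change between CAG-GFP Pilo and CAG-GFP Sham, against 58.6% of all genes (median log2 1.52 against 0.41). Between DREADD Sham and CAG-GFP Sham cells 24 did, against 61.1% (1.90 against 0.53). Between DREADD Pilo and CAG-GFP Pilo cells 5 did, against 58.4% (-1.41 against 0.28). Between DREADD Pilo and DREADD Sham cells 5 did, against 52.3% (-1.25 against 0.07). In the interaction 4 were positive, against 42.8% (-2.58 against -0.43). In DREADD Pilo 3 only 20 of the 32 partner genes had counts, and these medians are not given without that library. The AMPA receptor partner gene Cnih3, of the cornichon family, had a log2 fold change of 3.59 ± 1.60 between CAG-GFP Pilo and CAG-GFP Sham cells (SE, edgeR adjusted p = 0.316), and the scaffold-associated gene Dlgap4 1.41 ± 0.69 (0.332). Between DREADD Sham and CAG-GFP Sham cells, Dlgap4 stood at 1.93 ± 0.70 and the AMPA receptor partner gene Shisa9 at 3.59 ± 1.67 (SE, edgeR adjusted p = 0.224 and 0.268).

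Olfm1, whose secreted product binds AMPA receptors, had 72.3, 140 and 57.1 CPM in DREADD Pilo libraries, against 408, 437, 826 and 270 CPM in CAG-GFP Pilo libraries. On the log2 scale the change was -2.44 ± 0.85 (SE, edgeR adjusted p = 0.882), and every DREADD Pilo library was the lower. Frrs1l, needed for AMPA receptor assembly, had 39.8, 7.28 and 2.90 CPM in DREADD Pilo libraries, against 59.8 to 167 CPM in CAG-GFP Pilo libraries, with a log2 fold change of -2.55 ± 0.93 (SE, edgeR adjusted p = 0.882). Against DREADD Sham cells, Frrs1l stood at -2.18 ± 0.91 and the kinase gene Camk2a at -3.04 ± 1.20 (SE, edgeR adjusted p = 0.954 for both). In the interaction Camk2a stood at -4.86 ± 1.65 and Olfm1 at -2.77 ± 1.14 (SE, edgeR adjusted p = 0.38 and 0.412). With 1 library left out, Olfm1 ran from -2.92 to -2.05 and Frrs1l from -4.28 to -2.08 against CAG-GFP Pilo. Against DREADD Sham, Frrs1l ran from -3.92 to -1.58 and Camk2a from -3.45 to -2.07. The interaction ran from -6.40 to -3.89 for Camk2a and from -3.23 to -1.89 for Olfm1.

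In the list of glutamate release and uptake, 8 of 10 genes were tested and 1 passed. Glul, which encodes the glutamine synthetase of astrocytes, had 159, 142, 74.6 and 174 CPM in CAG-GFP Pilo libraries and 207, 178, 205 and 143 CPM in DREADD Sham libraries, against 972, 1063 and 1048 CPM in CAG-GFP Sham libraries. It fell by 2.90 ± 0.48 on the log2 scale in CAG-GFP Pilo (SE, edgeR adjusted p = 0.0272) and by 2.49 ± 0.48 in DREADD Sham cells (adjusted p = 0.0451), which share the CAG-GFP Sham libraries. Left out 1 at a time, each library ended the call, with adjusted p from 0.0516 to 0.126 and from 0.117 to 0.203, while the folds stayed at -3.03 to -2.70 and -2.55 to -2.39. The calls also ended with library totals in place of TMM factors (adjusted p = 0.118 and 0.151). Of the list, 5 of 8 genes had a positive fold change in both of these comparisons (medians 0.51 and 1.02). The list summed to 757 to 3313 in CAG-GFP Pilo and 1199 to 3087 in DREADD Sham, against 13827 to 14416 CPM in CAG-GFP Sham. In both, 3 of 10 genes lay wholly below (12.2% and 12.7% of all genes), and 3 and 2 above. The 3 were Glul, Slc1a2 and Slc1a3. Slc1a2 had 175 to 1887 and 259 to 972 CPM, against 8068 to 8352 CPM. Slc1a3 had 72.1 to 757 and 137 to 1222 CPM, against 4482 to 4922 CPM. Positive folds numbered 5 between DREADD Pilo and CAG-GFP Pilo cells (0.07), 3 between DREADD Pilo and DREADD Sham cells (-0.26) and 3 in the interaction (-0.59). The vesicular transporter gene Slc17a7, which marks glutamatergic neurons, had 8.90, 4.27 and 0 CPM in DREADD Pilo libraries, against 32.5, 43.5, 108 and 48.6 CPM in CAG-GFP Pilo libraries, a log2 fold change of -3.72 ± 1.54 (SE, edgeR adjusted p = 0.882). The transporter gene Slc38a2 stood at 1.45 ± 0.72 in that comparison (0.882). Between DREADD Pilo and DREADD Sham cells Slc17a7 stood at -3.03 ± 1.49 (0.967) and the astrocyte transporter gene Slc1a3 at -0.73 ± 0.82 (1). In the interaction Glul stood at 2.55 ± 0.66 (0.261) and Slc17a7 at -7.00 ± 2.15 (SE, edgeR adjusted p = 0.356). With 1 library left out, Slc17a7 ran from -4.78 to -3.17 and Slc38a2 from 0.525 to 1.87 against CAG-GFP Pilo. Against DREADD Sham, Slc17a7 ran from -4.10 to -1.69, with 0.46 within set 2, and Slc1a3 from -1.29 to -0.06. The interaction ran from 2.08 to 2.78 for Glul and from -8.04 to -5.66 for Slc17a7.

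Several of these genes share exons with another annotated gene, and since the strand setting of the counting is not given in the sources used here, their reads cannot be told apart. An antisense gene overlaps Grm2 by 470 bases of exon, Cacng2 by 323, Grin2d by 233, Neto1 by 219, Grin1 by 165, Grm7 by 130 and Grin2b by 49. The longest overlaps with other genes, of miRNA or other short RNA and a long noncoding RNA, were of 143 bases or fewer.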

How the data were processed

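RNA-seq gene counts of 14 libraries were analysed. The deposited table holds raw counts per gene, not normalised, as its whole numbers show. The submitters' processing notes name build hg38 with Subread, featureCounts, Bowtie2, edgeR and R 4.1.1, whereas every identifier is a mouse Ensembl identifier; annotation, strand setting and filters: not given in the sources used here. Symbols, positions and exon lengths came from GENCODE M21 on GRCm38, which matched 98% of identifiers. Libraries were grouped by title. The test was that of edgeR 4.0.16 under R 4.3.3 (TMM, filterByExpr, quasi-likelihood F-test, 1 fit of all 14 libraries, Benjamini-Hochberg over 18676 genes, threshold 0.05). It was tried on simulated data with a smaller spread than these libraries had, so its behaviour at their spread was not checked. Alternatives were other scalings and filters, DESeq2 1.42.0, limma voom 3.58.1, the compared groups alone, library set as covariate or within set, a replicate block, summed CAG-GFP Sham libraries and each library left out. The biological coefficient of variation was 1.47, and counting intervals cover counting error only, since reads are not independent molecules. Members, lists and tests were chosen with earlier results of these data known. Every member is given by level; folds with p are given for members past the test, and otherwise for the 4 with the smallest p in each comparison, and on each list for those past the test or else the 2 with the smallest p. Grm3 between CAG-GFP Pilo and CAG-GFP Sham, the promoters and their motifs were chosen after values were seen.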

Additional observations from a re-analysis of the deposited data

Results flagged for a closer look

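In the groups of 4 libraries, 62 combinations of gene and group were screened on log2 CPM for a single library far from the other 3. The mark was a gap to the next library above Dixon's critical share of the range, and 10 were found. Chance gives about 1 in 20 only for normally spread values. With 3 libraries tied at 0 the gap is the whole range by construction, so the 10 cannot be read against that rate. In CAG-GFP Pilo, CAG-GFP Pilo 3 was the high library for Grin2a (21.3 CPM), Grik3 (2.05 CPM), Grid1 (5.60 CPM) and Grm8 (11.5 CPM), with the other 3 libraries at or near 0. That library also had the highest interneuron marker sum, at 1539 CPM against 227 to 390 CPM in the other 3, but Cck alone gave 1438 CPM. Gad1, of the same list, had 255, 137, 27.8 and 0 CPM in CAG-GFP Pilo 1 to 4. The mature granule cell sum was also highest in CAG-GFP Pilo 3, at 1250 CPM, of which Calb1 gave 767 CPM. Prox1, of that list, had 221, 238, 32.2 and 0 CPM in CAG-GFP Pilo 1 to 4. CAG-GFP Pilo 4 was the high library for Grik4 (32.2 CPM, against 4.14 to 4.42 CPM), and CAG-GFP Pilo 2 the low one for Gria4 (2.03 CPM, against 55.1 to 71.5 CPM).

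In DREADD Sham, the high library was DREADD Sham 2 for Grm4 (0.357 CPM) and Cacng5 (1.04 CPM) and DREADD Sham 1 for Grm8 (0.541 CPM), each with the other 3 at 0. DREADD Sham 3 was the low library for Neto1 (0 CPM, against 11.8 to 23.6 CPM).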

How the results depend on the processing

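No glutamate receptor gene passed in any of the 5 comparisons with edgeR, nor with any 1 library left out, under another scaling or filter, with library set as a covariate, with the replicate block or with the CAG-GFP Sham libraries summed. Members did pass in CAG-GFP Pilo against CAG-GFP Sham with DESeq2 (3), limma voom (3), only the groups compared (1) and within library set 1 (2), in DREADD Sham against CAG-GFP Sham with DESeq2 (2), limma voom (1), only the groups compared (1) and within set 1 (2), and in the interaction with DESeq2 (1). These were Cacng3, Cacng4, Grm2 and Grm3. Over all genes, the 45 calls between CAG-GFP Pilo and CAG-GFP Sham became 2412 with DESeq2, 777 with limma voom, 168 with only the groups compared, 89 with set as a covariate, 471 within set 1, 0 with the CAG-GFP Sham libraries summed, and 3 to 15 with 1 library left out. The 56 for DREADD Sham against CAG-GFP Sham became 13 with library totals, 2932, 858, 647, 146, 530 and 0 under the same settings, and 6 to 12 with 1 library left out. From 0 calls, DREADD Pilo against CAG-GFP Pilo gave 231 with DESeq2, DREADD Pilo against DREADD Sham 180 with DESeq2 and 2 with set as a covariate, and the interaction 3 without a filter, 1569 with DESeq2, 37 with limma voom, 11 with set as a covariate and 0 to 1 with 1 library left out. The cause of these differences was not tested.

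With the replicate block, 1 gene passed between CAG-GFP Pilo and CAG-GFP Sham and 0 for DREADD Sham against CAG-GFP Sham. The labels do not say that the numbers pair libraries. Of 19 same-number pairs 1 had a correlation of deviations over 0.1 (range -0.38 to 0.12), and 1 library correlated best with its own number. These values cannot decide on pairing, since same-number libraries often lie in different library sets. CAG-GFP Pilo 3 stood at 0.39 and 0.43 with DREADD Sham 1 and 2, of its set, and at -0.38 with DREADD Sham 3, of the other. Of 703 alternative values of the named folds, 4 turned sign: Grin2b (0.48) and Slc17a7 (0.46) between DREADD Pilo and DREADD Sham within set 2, and Grm8 there with the replicate block (-0.53) and without DREADD Pilo 3 (-4.84; the range with 1 library left out was -4.84 to 5.65, and without that library DREADD Pilo is at 0, so the value depends on the prior count). The median log2 change of the members turned to 0.01 between DREADD Pilo and CAG-GFP Pilo and to 0.17 between DREADD Pilo and DREADD Sham with set as a covariate. Library totals in place of TMM factors moved the median of all genes by 0.68, 0.78, -0.19, -0.30 and -0.99 in the 5 comparisons, and changed the split of the calls. Between CAG-GFP Pilo and CAG-GFP Sham it was 17 higher and 15 lower, against 13 and 32 with TMM factors, 1846 and 566 with DESeq2, and 85 and 692 with limma voom. For DREADD Sham it was 5 and 8, against 10 and 46 with TMM factors, 2184 and 748 with DESeq2, and 119 and 739 with limma voom. They also moved group means, to 46.1, 178.5, 67.6 and 45.0 CPM for Grin2c, Grm3, Grin2b and Grm5 in CAG-GFP Sham and 4.88 CPM for Grik4 in DREADD Sham. The floor of 3 counts was at most 0.334 CPM, while libraries of a group often differed by a member's whole level.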

Other observations

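Library set and receptor level moved together in DREADD Sham but not in the same way in CAG-GFP Pilo, the other group that both sets share. The 31 genes summed to 2217 and 1142 CPM in DREADD Sham 1 and 2, of set 1, and to 576 and 847 CPM in DREADD Sham 3 and 4, of set 2. In CAG-GFP Pilo they summed to 2592 and 1106 CPM in libraries 3 and 4, of set 1, and to 1541 and 1404 CPM in libraries 1 and 2, of set 2. Gria1 made up 36.4% and 30.9% of the AMPA subunit transcripts per kilobase in DREADD Sham 1 and 2 and 3.35% and 5.33% in DREADD Sham 3 and 4, where Gria2 made up 79.7% and 76.8%. In CAG-GFP Pilo 1 to 4 the Gria1 share was 25.4%, 50.3%, 24.5% and 44.3%. Immature neuron markers ran the other way in DREADD Sham, at 1014 and 1132 CPM in libraries 1 and 2 and 2248 and 2076 CPM in libraries 3 and 4.

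Among NMDA subunits, Grin3a, which encodes a subunit that lowers calcium entry, took the largest shares of the family per kilobase in DREADD Pilo 2 (61.5%) and DREADD Sham 3 (43.5%). Its share was 14.4% to 26.4% in the CAG-GFP Sham libraries.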
